A study of Mus musculus with 6 samples.

Results

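Genes of the p53 pathway were compared between pRb-deficient and pRb-expressing osteoblasts. The set holds 35 genes: the p53 family, its feedback regulators and direct targets of p53. Members were found as probe sets annotated with that single gene symbol, and each gene was read from its brightest probe set, judged by the mean over all 6 arrays. Of the 35 genes, 34 were measured, by 70 probe sets, among 18193 genes and 45037 probe sets on the array. Trp53, the gene of p53 itself, was not analysed here. All 34 measured genes had a signal above 32, the floor used here, on at least 1 array and entered the test.

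The p53 protein is a transcription factor that is held low by the ubiquitin ligase Mdm2 and is stabilised after DNA damage, oncogene activity and other stresses. It binds pairs of short sequence repeats near its targets and induces genes for cell cycle arrest, cell death, DNA repair and metabolism, together with inhibitors that switch it off again. The pRb and p53 pathways are linked, since E2F factors released from pRb can induce Arf, an inhibitor of Mdm2, and since serial passage by the 3T3 protocol often selects mouse cells that have lost Arf or p53 function.

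The cells were MC3T3 osteoblasts, prepared from calvariae (skull bones) of embryonic day 18.5 mice and immortalized by 3T3 passage. The pRb-deficient cells carry the label Rb knockout and come from a cross of flox19-RB1 mice, kept on a C57BL/6 background, with Col1a1-Cre transgenic mice, in which a collagen promoter active in osteoblasts drives Cre. The pRb-expressing cells carry the label wild type and come from control littermates of the same cross. There were 3 cultures of each kind, called biological replicates in the labels, and no label says that the 3 came from different animals or immortalizations. The p-values therefore measure the spread between cultures, and the loss of pRb and the line of origin cannot be told apart.

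Values are MAS5 signals on a linear scale, scaled by the authors to a trimmed mean of 500 on each array. A gene was called at an adjusted p under 0.05 from limma, with Benjamini-Hochberg adjustment over all probe sets tested. Log2 fold changes are pRb-deficient over pRb-expressing, so that a negative value means a lower signal in pRb-deficient cells.

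The arrays had median signals of 107.7 to 119.5. Rb1 had signals of 143.1, 127.1 and 123.5 in pRb-deficient cultures, against 1123.7, 1118.6 and 1105.9 in pRb-expressing cultures. Of 9 osteoblast markers measured, 8 were lower and 1 was higher in pRb-deficient cells, and Ibsp and Dmp1, matrix proteins of mature osteoblasts, did not exceed 11.9 in any pRb-deficient culture. Their summed signal was 35920 to 48320 in pRb-deficient and 67600 to 76900 in pRb-expressing cultures, so the osteoblast label was borne out less by the pRb-deficient cells. Some markers of other cell types moved as well, in both directions. Of 7 smooth muscle and pericyte markers tested, 4 were higher (Tagln, Cnn1, Cspg4 and Mcam) and 0 lower, with a sum over the 8 measured of 29080 to 34620 in pRb-deficient and 23670 to 26250 in pRb-expressing cultures, while Myh11 stayed at 25.8 or less on every array. Acta2 and Rgs5 were not called, though every pRb-deficient culture was below every pRb-expressing one. Their log2 fold changes were −0.24 and −0.35 (adjusted p = 0.081 and 0.194 from limma). Des was not called either (1.21, adjusted p = 0.134 from limma). Of 7 epithelial and mesothelial markers, Msln and Bnc1 were higher, Krt8 was lower and 4 were not called. The sum of the 7 was 3357 to 3791 in pRb-deficient and 958 to 1058 in pRb-expressing cultures. The higher sum came from Msln and Bnc1, since Epcam, Krt8, Krt18, Upk3b and Wt1 each had a lower mean in pRb-deficient cultures. Upk3b did not exceed 22.9 in pRb-deficient cultures and was 32.6 to 80.6 in pRb-expressing cultures, and Wt1 stayed at 38.6 or less on every array. Of 7 chondrocyte markers tested, 1 was higher and 3 were lower. Of 7 hematopoietic and osteoclast markers tested, Cd68 was higher and Ctsk was 24.4-fold lower. Of 5 endothelial markers tested, 0 were called. Cnn1, a calponin of smooth muscle, and Msln, the mesothelial surface protein mesothelin, were at least 77.4-fold and 47.1-fold higher. These markers are named after their values were seen, and their part in the p53 pathway results was not tested. Xist, the RNA of the inactive X chromosome, had signals of 9658.4 to 12296.3 in pRb-deficient and 159.7 to 176.3 in pRb-expressing cultures, and the Y-linked gene Uty did not exceed 14.5 in pRb-deficient cultures and reached 437.7 to 567.3 in pRb-expressing cultures. The groups therefore differed in sex-linked genes as well as in pRb. In bulk samples, fewer cells of a type and less RNA per cell cannot be told apart.

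Most of the p53 pathway genes had lower signals in pRb-deficient osteoblasts. The members were chosen with earlier results of these data known, so their shares beside those of all genes are a description. Of the 34 measured, 22 were lower, 5 were higher and 7 were not called. Together 27 were called (79.4%), against 41.9% of 16308 genes tested on the whole array. Dim genes reduce that background share. With only genes of mean signal 100 or more tested, 3001 of 11665 were higher and 3755 lower, against 3021 and 3808 of the 16308. The p53 pathway genes then had 6 higher and 21 lower. Since 31 of the 34 had a mean signal of 200 or more, 41.9% is a low background for them. The same limit holds for the lists set beside 41.9% below. By direction, 23.4% of all genes were called lower and 18.5% higher. Signals of the groups did not overlap for 28 of the 34 genes, against 53.8% of all genes tested. Of the 34 genes, 18 were called and changed at least 2-fold, against 15.6% of all genes tested. The median log2 fold change was −0.83 over the 34 genes and −0.09 over all genes, and the median size of the change, regardless of sign, was 1.28 and 0.39. These shares and medians over all genes include dim genes too, and were not compared with genes of like brightness.

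The change was not in one direction. The 5 higher genes were Gadd45a, Plk2, Plk3, Tnfrsf10b and Steap3, while all measured genes of the p53 family and of the feedback group were lower. Of the 10 cell death genes, 7 were lower and 2 higher, and of the 6 genes of metabolism and nutrient stress 2 were lower and 4 were not called.

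**Figure D1:**
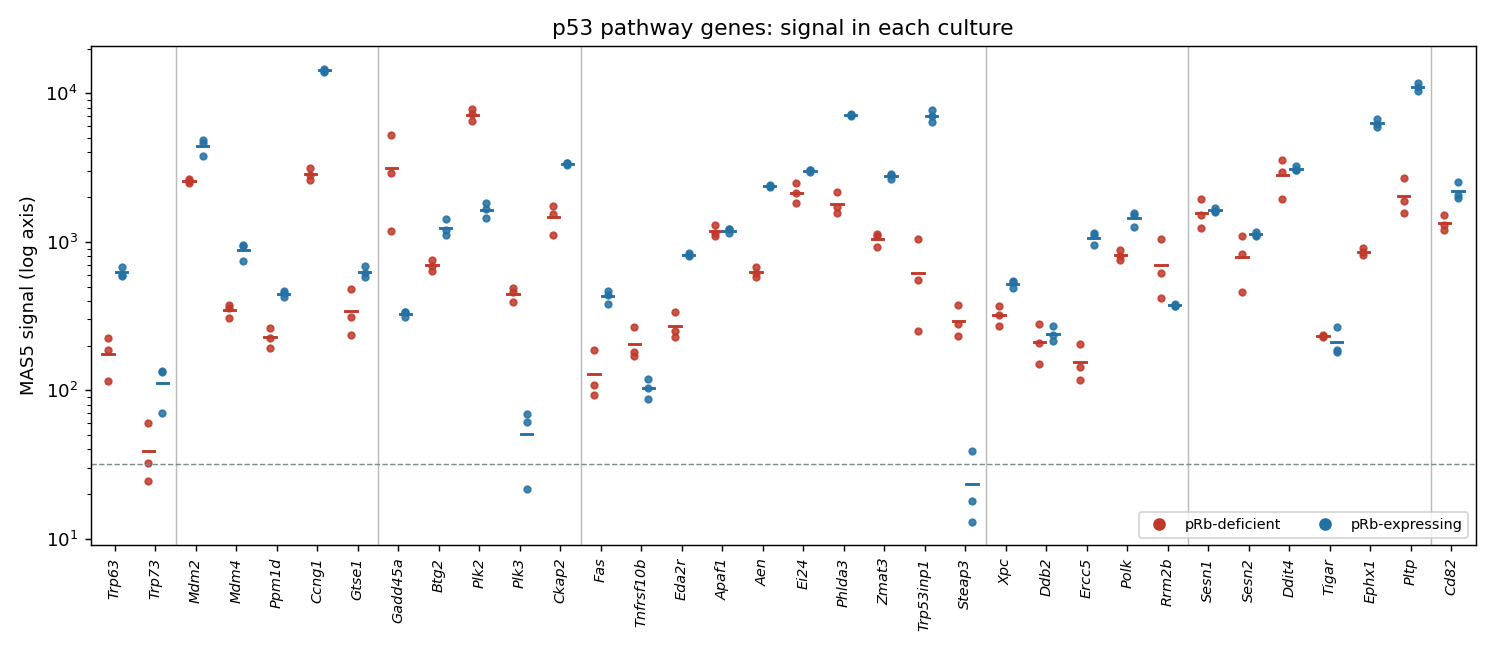
MAS5 signal (log axis) of each measured p53 pathway gene in the 3 pRb-deficient and the 3 pRb-expressing cultures, grouped by role. Points are cultures, short bars are means and a dashed line marks the floor of 32. Genes such as Ccng1, Aen and Ephx1 show tight groups set far apart, while the pRb-deficient points of Gadd45a and Trp53inp1 are spread widely.

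**Figure D2:**
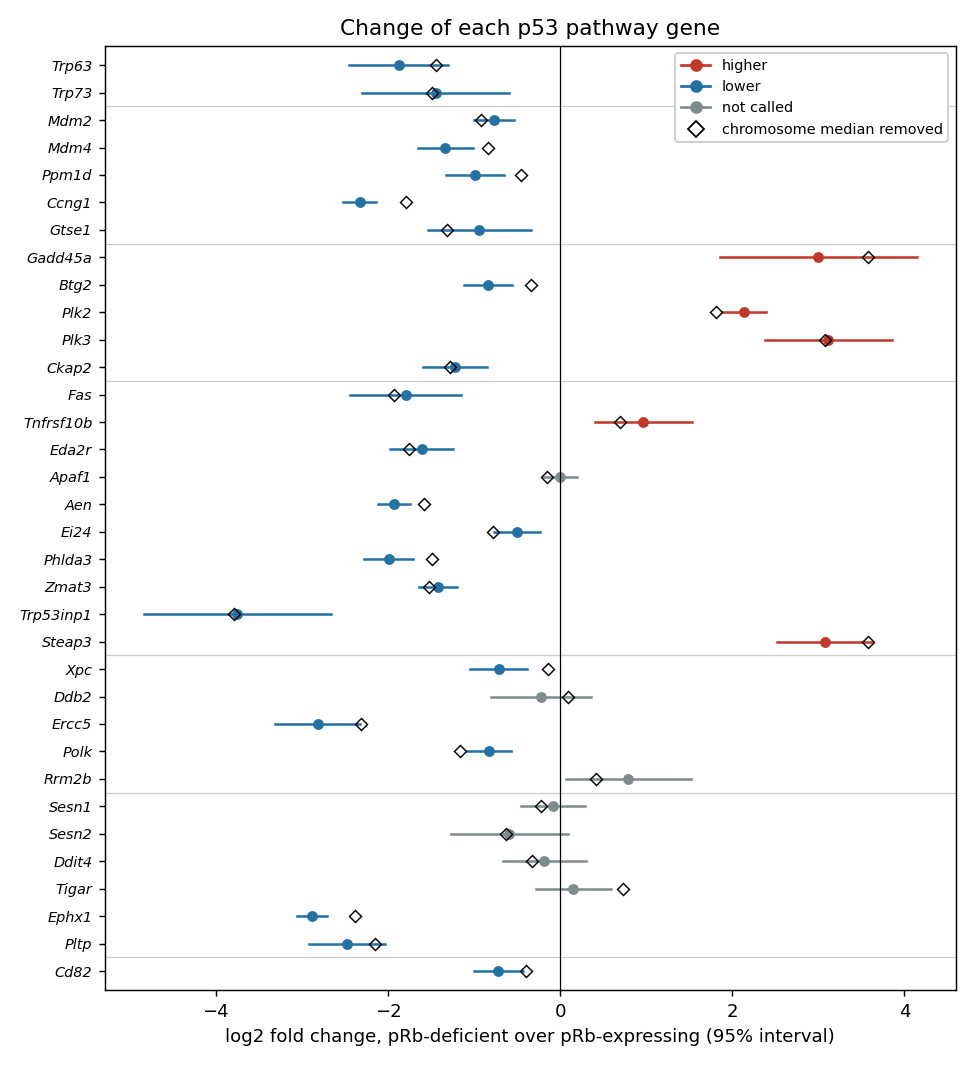
Log2 fold change of each gene, pRb-deficient over pRb-expressing, with its 95% interval from limma, coloured by call. Open diamonds give the value after removal of the median change of the gene's chromosome, and of the 34 genes 22 are lower and 5 higher before that step and 20 lower and 5 higher after it.

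Promoter sequence was examined because these genes were chosen as a family of shared targets and many of them moved together. RefSeq promoters (build GRCm38.p6, 250 bases before to 50 after the start site) were found for 27 of the 34 genes. The p53 consensus half-site, of 10 bases, was searched on both strands without mismatches and occurred in 10 of the 27 (37.0%), against 9.55% of 27025 genes with such windows. Some genes have several windows, and by window the shares were 28.2% of 39 and 8.36% of 32851. Since the set was chosen as regulators and targets of p53, a larger share with half-sites can follow from that choice. The contrast with all genes is not a result of these arrays. The half-site was found in 8 of 18 lower genes and in 1 of 4 higher genes, Gadd45a. A pair of half-sites with a spacer of at most 13 bases and at most 2 mismatches in all was found in 3 of the 27 (11.1%), against 2.47% of all genes. The E2F motifs TTTCGCGC and TTTGGCGC were in 0 of the 27, against 0.374% and 0.585% of all genes. The cell cycle element TTTGAA, also searched on both strands, was in 4 of the 27 (14.8%), against 20.2% of all genes. Each match is a description of the sequence and was not measured as binding. The matches of 3 lower feedback regulators, of the higher gene Gadd45a, of the lower repair gene Polk, and of Ckap2 and Sesn1, which hold paired half-sites, are shown on the strand of the gene with half-sites in capitals.
Mdm2, chr10:117710920-117710959, minus strand: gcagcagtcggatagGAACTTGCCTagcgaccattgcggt
Ccng1, chr11:40755447-40755486, minus strand: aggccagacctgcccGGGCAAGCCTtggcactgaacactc
Ppm1d, chr11:85311107-85311146, plus strand: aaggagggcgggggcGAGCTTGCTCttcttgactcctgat
Gadd45a, chr6:67037423-67037462, minus strand: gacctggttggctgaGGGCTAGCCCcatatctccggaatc
Polk, chr13:96519394-96519433, minus strand: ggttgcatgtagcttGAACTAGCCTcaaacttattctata
Ckap2, chr8:22185993-22186032, minus strand: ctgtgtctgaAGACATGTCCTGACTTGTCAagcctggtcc
Sesn1, chr10:41887243-41887285, plus strand: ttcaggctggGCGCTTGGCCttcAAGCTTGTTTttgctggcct
The Ckap2 half-sites lie next to each other and the Sesn1 half-sites are 3 bases apart, each pair with 2 mismatches. Gtse1, which was lower, held the other pair, with 1 mismatch.

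Both measured relatives of p53 were lower. Trp63, which encodes p63, a factor of stratified epithelia that binds sites like those of p53, had signals of 224.9, 186.2 and 115.7 in pRb-deficient cultures, against 672.4, 592.9 and 600.8 in pRb-expressing cultures. Every pRb-deficient culture was below every pRb-expressing one, at a log2 fold change of −1.88 ± 0.24 (SE, adjusted p = 0.0011 from limma), and 3 of the 4 Trp63 probe sets were lower. Trp73, which encodes p73, was dim: 60.0, 32.6 and 24.4 in pRb-deficient cultures, against 134.7, 132.7 and 70.5 in pRb-expressing cultures. The decrease was at least 2.72-fold (limma, adjusted p = 0.019), but its second probe set was not called (adjusted p = 0.735 from limma), and the call was lost without pRb-deficient replicate 2 or 3 (adjusted p = 0.0939 and 0.0813 from limma) and without pRb-expressing replicate 1 or 2 (0.0924 and 0.102).

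The 5 genes that act back on p53 were all lower. Mdm2, the ubiquitin ligase that p53 itself induces, had signals of 2489.1, 2636.3 and 2580.8 in pRb-deficient cultures, against 4817.3, 3791.3 and 4606.4 in pRb-expressing cultures. The groups did not overlap, and the log2 fold change was −0.77 ± 0.10 (SE, adjusted p = 0.00103 from limma). A second bright Mdm2 probe set gave −0.84 (adjusted p = 0.000462 from limma), and a dim one, with no signal above 51.3, was not called. Mdm4, the relative of Mdm2 that masks the transactivation domain of p53, had signals of 360.5, 306.4 and 375.6 in pRb-deficient cultures, against 945.8, 744.6 and 939.1 in pRb-expressing cultures. It was 2.52-fold lower (adjusted p = 0.000364 from limma), with 2 of its 4 probe sets lower and 2 not called. Ppm1d, the phosphatase Wip1, which removes damage-induced phosphates from p53 and its kinases, had signals of 224.1, 193.8 and 262.7 in pRb-deficient cultures, against 466.2, 427.9 and 450.3 in pRb-expressing cultures. Its groups did not overlap, its log2 fold change was −0.99 ± 0.14 (SE, adjusted p = 0.00176 from limma), and both its probe sets were lower.

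Ccng1 had the largest change of the feedback group. It encodes cyclin G1, which brings a phosphatase to Mdm2, and its signals were 2619.1, 2808.6 and 3147.5 in pRb-deficient cultures, against 14667.3, 14002.6 and 14242.1 in pRb-expressing cultures. The gap between groups was many times the spread within either, a 5.02-fold lower signal (log2 fold change −2.33 ± 0.08, SE, adjusted p = 5.79e-06 from limma). Its other probe sets gave log2 fold changes of −2.58 and −2.43. Gtse1, a microtubule protein of G2 and S phase that takes p53 out of the nucleus, had signals of 234.0, 310.4 and 482.6 in pRb-deficient cultures, against 619.2, 579.0 and 686.0 in pRb-expressing cultures. It was lower at a log2 fold change of −0.94 ± 0.25 (SE, adjusted p = 0.0258 from limma). The Gtse1 call was lost on leaving out any one culture except pRb-deficient replicate 3, with adjusted p-values of 0.0687 and 0.112 without pRb-deficient replicates 1 and 2 and 0.106, 0.101 and 0.116 without pRb-expressing replicates 1, 2 and 3 (limma).

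The group of cell cycle and growth genes held both higher and lower members. Gadd45a, a stress-induced protein that binds PCNA and Cdk1, had signals of 5264.8, 2914.2 and 1182.2 in pRb-deficient cultures, against 310.4, 336.0 and 339.3 in pRb-expressing cultures. The lowest pRb-deficient culture was still above all pRb-expressing ones, although the pRb-deficient cultures themselves differed 4.45-fold. The log2 fold change was 3.00 ± 0.48 (SE, adjusted p = 0.00288 from limma). Plk2, a polo-like kinase of the centrosome cycle and of checkpoint responses, had signals of 7210.4, 7830.0 and 6556.5 in pRb-deficient cultures, against 1439.5, 1660.3 and 1820.6 in pRb-expressing cultures. It was 4.40-fold higher (adjusted p = 2.16e-05 from limma), while a dim second probe set, at 75.0 or less on every array, was lower (log2 fold change −0.78, adjusted p = 0.0174 from limma).

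Plk3, a stress-responsive relative of Plk2, was also higher. Its signals were 394.6, 491.6 and 457.0 in pRb-deficient cultures, against 69.6, 21.5 and 61.2 in pRb-expressing cultures. With 1 pRb-expressing array below the floor, it was at least 8.66-fold higher (adjusted p = 0.000355 from limma). Btg2, an antiproliferative protein that recruits mRNA deadenylases, had signals of 691.9, 636.1 and 755.3 in pRb-deficient cultures, against 1102.9, 1202.4 and 1432.0 in pRb-expressing cultures. The groups did not overlap, at a log2 fold change of −0.84 ± 0.12 (SE, adjusted p = 0.00165 from limma), and both probe sets were lower. Ckap2, a spindle protein of dividing cells, had signals of 1116.3, 1550.7 and 1730.8 in pRb-deficient cultures, against 3376.0, 3302.0 and 3399.5 in pRb-expressing cultures, a log2 fold change of −1.22 ± 0.15 (SE, adjusted p = 0.001 from limma).

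Among cell death genes, the receptors went different ways. Fas, the death receptor for Fas ligand, had signals of 187.5, 92.4 and 108.4 in pRb-deficient cultures, against 383.7, 464.5 and 438.6 in pRb-expressing cultures. Eda2r, a receptor for ectodysplasin A2, had signals of 337.6, 228.1 and 249.9 in pRb-deficient cultures, against 803.9, 839.9 and 809.0 in pRb-expressing cultures. Both were lower with no overlap, Fas 3.47-fold (adjusted p = 0.00224 from limma) and Eda2r 3.05-fold (adjusted p = 0.000297 from limma). Tnfrsf10b, the mouse receptor for the death ligand TRAIL, had signals of 170.1, 180.1 and 266.6 in pRb-deficient cultures, against 103.6, 119.8 and 88.0 in pRb-expressing cultures. It was higher at a log2 fold change of 0.97 ± 0.24 (SE, adjusted p = 0.0184 from limma), in both probe sets. The Tnfrsf10b call was lost without pRb-deficient replicate 2 (adjusted p = 0.0518 from limma) and without pRb-expressing replicate 1 or 3 (0.0707 and 0.0733).

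The largest decrease of all 34 genes was that of Trp53inp1, a nuclear protein that promotes p53 phosphorylation and autophagy. Its signals were 1042.6, 551.5 and 251.2 in pRb-deficient cultures, against 7024.6, 6415.3 and 7774.6 in pRb-expressing cultures. The groups lay far apart despite a 4.15-fold range among pRb-deficient cultures, and the log2 fold change was −3.75 ± 0.46 (SE, adjusted p = 0.000863 from limma). The second probe set gave −2.72 (adjusted p = 0.000367 from limma). Phlda3, a small protein that competes with Akt for membrane lipids, had signals of 1555.3, 1707.5 and 2154.4 in pRb-deficient cultures, against 6990.4, 7225.2 and 7093.2 in pRb-expressing cultures. Phlda3 was 3.97-fold lower (adjusted p = 4.26e-05 from limma).

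Aen, an exonuclease that degrades DNA in dying cells, had signals of 579.4, 620.5 and 679.6 in pRb-deficient cultures, against 2342.7, 2365.3 and 2417.3 in pRb-expressing cultures. All 4 Aen probe sets were lower, the brightest by 3.80-fold (adjusted p = 1.06e-05 from limma). Zmat3, a zinc finger protein that binds RNA and affects splicing and mRNA stability, had signals of 920.9, 1094.0 and 1123.1 in pRb-deficient cultures, against 2833.3, 2661.2 and 2860.6 in pRb-expressing cultures, a 2.67-fold lower level (adjusted p = 5.78e-05 from limma). Ei24, an endoplasmic reticulum protein required for autophagy, changed less, with signals of 1823.2, 2129.9 and 2478.5 in pRb-deficient cultures, against 2960.6, 3034.0 and 3054.2 in pRb-expressing cultures. It was 1.42-fold lower (adjusted p = 0.012 from limma). The Ei24 call was lost without pRb-deficient replicate 2 (adjusted p = 0.059 from limma) and without any one of the pRb-expressing replicates (0.0576, 0.0692 and 0.06).

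Steap3, a metalloreductase of endosomes that reduces iron, was the higher gene with the most probe sets in agreement, 3 of 3. Its signals were 278.5, 373.5 and 232.7 in pRb-deficient cultures, against 18.0, 12.9 and 39.0 in pRb-expressing cultures, where 2 of 3 arrays were below the floor. The increase was at least 8.46-fold (limma, adjusted p = 0.000107). Apaf1, the core of the apoptosome that activates caspases, had signals of 1153.4, 1300.2 and 1102.6 in pRb-deficient cultures, against 1211.9, 1139.0 and 1211.8 in pRb-expressing cultures. The groups overlapped, and the log2 fold change of −0.01 had a 95% interval of −0.20 to 0.19 (adjusted p = 0.969 from limma).

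Genes of DNA repair were lower or not called. Ercc5, the endonuclease XPG of nucleotide excision repair, had signals of 203.9, 144.5 and 117.6 in pRb-deficient cultures, against 1109.2, 944.7 and 1153.3 in pRb-expressing cultures. It was 7.04-fold lower (adjusted p = 9.63e-05 from limma), and its other probe set, at 48.1 or less on every array, was not called. Xpc, which recognises damage at the start of that pathway, had signals of 372.0, 319.5 and 269.6 in pRb-deficient cultures, against 486.7, 547.1 and 532.5 in pRb-expressing cultures, and was lower (log2 fold change −0.72 ± 0.14, SE, adjusted p = 0.00708 from limma). Ddb2, which binds ultraviolet lesions, had overlapping groups, with 278.4, 208.1 and 149.8 in pRb-deficient cultures, against 236.5, 216.1 and 270.6 in pRb-expressing cultures. Its log2 fold change of −0.22 had a 95% interval of −0.80 to 0.35 (adjusted p = 0.533 from limma).

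Polk, a polymerase that copies past damaged bases, had signals of 879.8, 800.8 and 755.9 in pRb-deficient cultures, against 1563.3, 1260.7 and 1518.8 in pRb-expressing cultures. Both its probe sets were lower, the brighter at a log2 fold change of −0.83 ± 0.11 (SE, adjusted p = 0.00109 from limma). Rrm2b, the p53-inducible subunit of ribonucleotide reductase, had signals of 1050.7, 620.5 and 415.3 in pRb-deficient cultures, against 368.7, 379.4 and 370.7 in pRb-expressing cultures. Although every pRb-deficient culture was above every pRb-expressing one, the log2 fold change of 0.79 ± 0.31 (SE) was not called (adjusted p = 0.0896 from limma). It was called without pRb-deficient replicate 3, the lowest of the pRb-deficient cultures (log2 fold change 1.12, adjusted p = 0.0202 from limma). It was also called with a pseudocount of 32, with only genes of mean signal 100 or more tested, and with array weights (adjusted p = 0.0461, 0.0431 and 0.00784 from limma). The other Rrm2b probe sets gave log2 fold changes of 1.17, 0.75 and 0.89 and were not called (adjusted p = 0.092, 0.375 and 0.109 from limma).

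Of the groups, metabolism and nutrient stress had the smallest share of called genes, 2 of 6 (33.3%), against 41.9% of all genes. Sesn1 and Sesn2 encode sestrins, which restrain mTORC1 when amino acids are short, and Ddit4 encodes REDD1, another inhibitor of mTORC1. Sesn1 had signals of 1943.5, 1515.8 and 1230.2 in pRb-deficient cultures, against 1680.7, 1601.6 and 1598.0 in pRb-expressing cultures. Sesn2 had 1093.6, 824.4 and 461.3 in pRb-deficient cultures, against 1088.2, 1117.4 and 1161.8 in pRb-expressing cultures. Ddit4 had 3548.1, 2943.0 and 1954.5 in pRb-deficient cultures, against 3025.6, 3062.3 and 3224.8 in pRb-expressing cultures. The groups overlapped for all 3 genes, and in each pRb-deficient replicate 1 was the highest and replicate 3 the lowest of the pRb-deficient cultures. Their log2 fold changes were −0.08, −0.59 and −0.18 in that order, with 95% intervals of −0.45 to 0.29, −1.27 to 0.09 and −0.66 to 0.30 (adjusted p = 0.731, 0.167 and 0.539 from limma). The second Sesn2 probe set was lower (log2 fold change −0.82, adjusted p = 0.0448 from limma).

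Tigar, a phosphatase that diverts glucose from glycolysis, had signals of 232.8, 228.0 and 234.3 in pRb-deficient cultures, against 181.2, 186.9 and 266.1 in pRb-expressing cultures. The groups overlapped (log2 fold change 0.15, 95% interval −0.28 to 0.59, adjusted p = 0.572 from limma). Ephx1, the microsomal epoxide hydrolase, had signals of 904.5, 849.3 and 812.5 in pRb-deficient cultures, against 6255.9, 6677.3 and 5965.5 in pRb-expressing cultures. It was 7.36-fold lower and had the lowest adjusted p of the 34 genes (2.02e-06 from limma). Pltp, which transfers phospholipids between lipoproteins, had signals of 2673.8, 1881.2 and 1565.3 in pRb-deficient cultures, against 11051.4, 11750.8 and 10380.0 in pRb-expressing cultures. It was 5.55-fold lower (adjusted p = 9.94e-05 from limma), and so was its other probe set. Cd82, a tetraspanin of the cell surface, had signals of 1506.6, 1295.4 and 1197.9 in pRb-deficient cultures, against 2080.9, 1985.4 and 2510.4 in pRb-expressing cultures. It was 1.64-fold lower (adjusted p = 0.00369 from limma), with its dimmer probe set not called.

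The spread within groups was uneven. Among pRb-deficient cultures, 7 of the 34 genes differed at least 2-fold between the highest and the lowest culture, against 2 genes, Plk3 and Steap3, among pRb-expressing cultures. The 7 were Trp73, Gtse1, Gadd45a, Fas, Trp53inp1, Rrm2b and Sesn2, and 6 of them were highest in pRb-deficient replicate 1. Gtse1 was the exception, with its highest value in replicate 3. Over all 34 genes, 17 were highest in replicate 1, 5 in replicate 2 and 12 in replicate 3, and of the genes on the array whose mean signal was 200 or more 42.1%, 21.4% and 36.5% were. The wider spread was not particular to p53 genes: of the 31 whose mean signal was 200 or more, 22 (71.0%) had the larger SD on the log2 scale among pRb-deficient cultures, against 69.3% of 9677 such genes on the array.

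A pair of other gene lists varied over the same cultures. The summed signal of 15 genes of the integrated stress response, the program driven by the factor ATF4, was 65470, 48880 and 36720 in pRb-deficient cultures, against 34160, 36630 and 36950 in pRb-expressing cultures. In that list 4 genes (26.7%) were higher (Phgdh, Psat1, Slc7a11 and Stc2) and 0 were lower, a smaller share called than the 41.9% of all genes. The call of Slc7a11 was lost without pRb-expressing replicate 2 (adjusted p = 0.0519 from limma) and that of Stc2 without pRb-expressing replicate 1 or 3 (0.0539 and 0.0559). The summed signal of 19 proliferation and mitosis markers was 24640, 32290 and 43790 in pRb-deficient cultures, against 35370, 34740 and 35440 in pRb-expressing cultures. Of these, Ccnb2 and Kif23 were higher, Aurkb and Cenpf were lower and 15 were not called. The calls of Ccnb2, Kif23 and Aurkb were each lost without pRb-deficient replicate 2 and without any one of the pRb-expressing replicates (adjusted p up to 0.0616, 0.133 and 0.0888 from limma), and with chromosome medians removed (0.111, 0.129 and 0.299). Over the pRb-deficient cultures, 15 of the 34 genes, Gadd45a, Trp53inp1, Rrm2b and Sesn2 among them, had the order of the ATF4 list, and 8, Gtse1 and Ckap2 among them, that of the proliferation list. Among genes whose mean signal was 200 or more, these orders were seen in 14 and 7 of the 31 p53 pathway genes (45.2% and 22.6%), against 31.1% and 27.0% of the 9677 on the array. With 3 cultures this is a description, and the part of either program in these values was not tested. Of 12 further stress genes, 6 were higher and 2 lower (66.7% called, against 41.9% of all genes). Hspa1a, a heat shock protein, was higher, at 592.2, 813.4 and 579.1 in pRb-deficient cultures and at or below 21.3 in pRb-expressing cultures. The immediate early genes were divided. Jun, Ier3, Egr1 and Ier2 were higher, Fos and Fosb were lower (log2 fold changes −0.92 and −0.86, adjusted p = 0.00743 and 0.0138 from limma), and Junb was not called (adjusted p = 0.97).

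**Figure D3:**
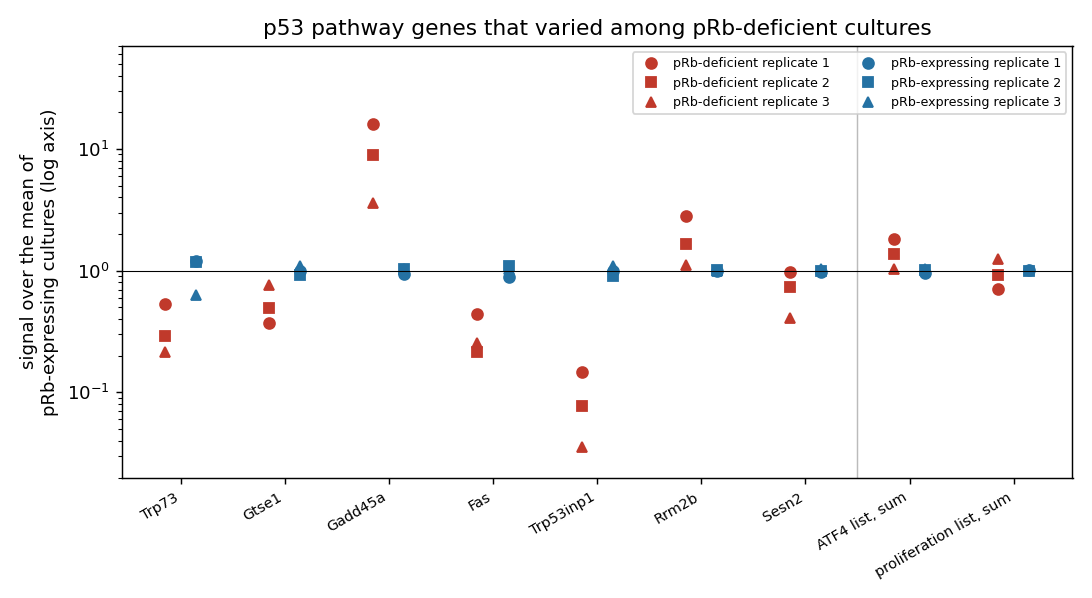
Signal of each culture over the mean of the pRb-expressing cultures (log axis) for the 7 p53 pathway genes with at least a 2-fold range among pRb-deficient cultures and for the summed ATF4 and proliferation lists. Marker shapes give the replicate number. Replicate 1 of the pRb-deficient cultures is the highest for 6 of the 7 genes and for the ATF4 list, at 16.0 times the mean of pRb-expressing cultures for Gadd45a.

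Whole chromosomes were shifted between the lines, so each gene was set beside the median change of its chromosome. Chromosomes 1, 6, 11 and 16 had median log2 fold changes of −0.50, −0.58, −0.52 and −0.43, while chromosome 15 had 0.35. Of 16 p53 pathway genes on chromosomes with a negative median, 12 were lower and 2 higher, and of 18 on chromosomes with a positive median, 10 were lower and 3 higher. The median of the 34 genes was −0.81 relative to their chromosomes. With chromosome medians removed before the fit, 20 genes were lower and 5 higher, against 19.1% and 19.5% of all genes. Xpc and Btg2 were then not called (log2 fold changes −0.14 and −0.34, adjusted p = 0.458 and 0.0602 from limma), nor was Tnfrsf10b (0.69, adjusted p = 0.0641). Tigar was then higher (0.73, adjusted p = 0.0218 from limma). Chromosome 1 alone held 6 of the genes, of which Steap3 was higher and Mdm4, Btg2, Phlda3, Ercc5 and Ephx1 were lower.

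**Figure D4:**
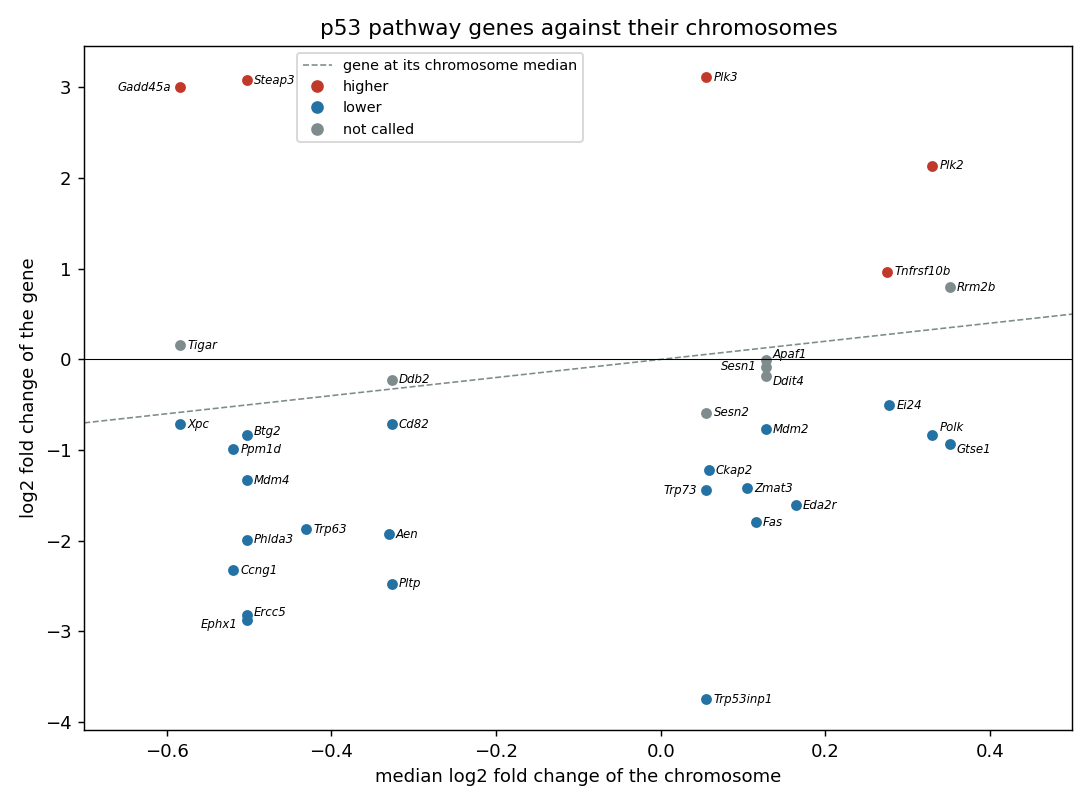
Log2 fold change of each p53 pathway gene against the median log2 fold change of its chromosome, coloured by call. The dashed line marks a gene that moved with its chromosome. Xpc lies near the line, while Gadd45a and Steap3 lie above it on chromosomes 6 and 1, whose medians were −0.58 and −0.50.

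Other genes of the pathway were divided in direction. Of 64 further genes, taken as regulators or targets, 58 were measured, and 18 were higher, 18 lower and 22 not called. This list too was chosen with earlier results of these data known. Called genes made up 62.1%, against 41.9% of all genes, where 18.5% were higher and 23.4% lower. The 41.9% includes dim genes. With only genes of mean signal 100 or more tested, 3001 of 11665 were higher and 3755 lower, a larger share than 41.9%. This list then had 18 higher and 18 lower. Whether 62.1% exceeds the share among genes of like brightness was not tested. Among 23 damage kinases and modifiers of p53, 9 were higher and 5 lower. Ppp1r13b, the protein ASPP1 that steers p53 to death genes, had signals of 698.0, 761.2 and 831.4 in pRb-deficient cultures, against 140.3, 142.2 and 179.1 in pRb-expressing cultures (4.98-fold higher, adjusted p = 4.66e-05 from limma). Cop1, a ubiquitin ligase for p53, had signals of 3759.9, 3702.7 and 3422.4 in pRb-deficient cultures, against 9351.6, 9628.8 and 8785.9 in pRb-expressing cultures (2.55-fold lower, adjusted p = 2.39e-05 from limma). Pml, the scaffold of nuclear bodies, the deacetylase Sirt1 and the ubiquitin ligase Rchy1 were also higher, and the damage adaptor Trp53bp1 was lower. Log2 fold changes of these 4 were 1.13, 0.63, 0.48 and −0.48, and with chromosome medians removed Rchy1 and Trp53bp1 were not called (adjusted p = 0.0764 and 0.201 from limma).

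Of 35 other direct targets measured, 9 were higher, 13 lower and 13 not called. Pmaip1, which encodes the BH3-only death protein Noxa, had signals of 1670.1, 1405.2 and 1188.7 in pRb-deficient cultures, against 2.2, 1.4 and 1.2 in pRb-expressing cultures. It was at least 44.0-fold higher (adjusted p = 3.6e-06 from limma). Perp, a desmosomal protein and death effector, was at least 60.6-fold higher, and Hbegf, a growth factor of the EGF family, was 16.1-fold higher (adjusted p = 7.17e-06 from limma). In the other direction, Psrc1, a spindle protein, had signals of 162.3, 255.2 and 285.7 in pRb-deficient cultures, against 3598.9, 3586.5 and 3837.1 in pRb-expressing cultures (16.1-fold lower, adjusted p = 2.16e-05 from limma). Ak1, an adenylate kinase, was 6.93-fold lower, though its other probe set was not called (log2 fold change −0.05, adjusted p = 0.879 from limma), and Dram1, a lysosomal protein, was 2.64-fold lower (adjusted p = 1.76e-05 from limma). Cdkn1a, the Cdk inhibitor p21 and the best-known arrest target, is named here after its values were seen: its signals were 1883.2, 1412.3 and 1463.5 in pRb-deficient cultures, against 6506.4, 7324.4 and 6801.4 in pRb-expressing cultures (4.37-fold lower, adjusted p = 3.21e-05 from limma).

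**Figure D5:**
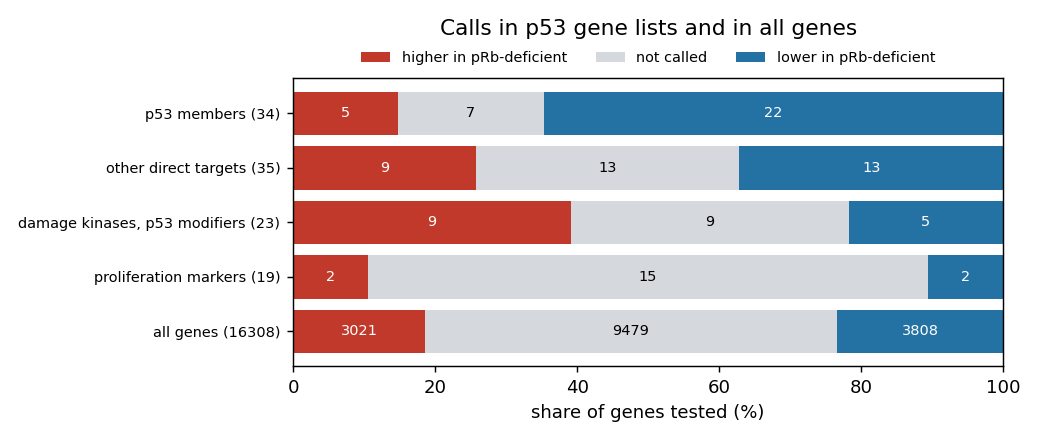
Share of genes tested (%) called higher, not called or called lower in pRb-deficient cells, for the 34 p53 pathway genes, 35 other direct targets, 23 damage kinases and p53 modifiers, 19 proliferation markers and all 16308 genes, with the number of genes in each segment. The p53 pathway genes have 22 lower and 5 higher, the other targets 13 lower and 9 higher, and the modifiers 5 lower and 9 higher.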

How the data were processed

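RNA of 3 pRb-deficient and 3 pRb-expressing osteoblast cultures was hybridized to 1 Affymetrix mouse array each. The intensities, as deposited by the authors, are linear MAS5 signals brought by them to a trimmed mean of 500 per array. Affymetrix Expression Console 1.1 is the software given in the submitters' processing notes. They came without detection calls, and the number of arrays limits the precision. Here 64 controls and 6610 probe sets at or below 32 on all arrays were left out. For the other 38427, signals under 32 were set to 32 and log2 values were fitted in limma 3.58.1 in R 4.3.3 (group as the only term, intensity trend, 4 residual degrees of freedom, two-sided tests, Benjamini-Hochberg adjustment). The study's methods name a Wilcoxon test, run as an alternative. Where a group had arrays at or below 32, folds are lower bounds. Folds compare geometric means. Probe set brightness served to choose 1 probe set per gene, and summed signals of a list were compared between cultures only, since levels of different probe sets are not on 1 scale.

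Members, lists and tests were chosen with earlier results of these data known. By rule, the text names all members and the 6 genes of each other p53 list whose adjusted p was lowest. The same rule took up to 4 genes each of the proliferation, ATF4 and stress lists. Other stress genes, Cdkn1a, cell type markers and sex-linked genes are named outside this rule. Of the probe sets, 34945 had 1 gene symbol, 932 several and 9160 none. Chromosomes, from RefSeq (GRCm38.p6), were available for 34741 of those with 1 symbol, and chromosome medians were taken over genes whose mean signal reached 200. The steps were tested on simulated data. Replicate numbers were not taken as pairs: deviations of same-numbered arrays from their group means correlated at 0.023, −0.034 and 0.057.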

Additional observations from a re-analysis of the deposited data

How the results depend on the processing

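Alternatives were other floors and filters, a pseudocount, quantile and median normalization, removal of chromosome medians, no trend, array weights, a replicate block, a 1.5-fold minimum change, leaving out each array, an exact Wilcoxon test and other probe sets. The counts of 5 higher and 22 lower p53 pathway genes stayed at 4 to 6 and 19 to 23, except under the next 2 settings. Tested against a minimum change of 1.5-fold, 13 were lower and 4 higher, of the other p53 genes 8 were higher and 10 lower, and of all genes 2159 (13.2%) were called instead of 6829. The exact Wilcoxon test called 0 genes in each of these counts, and 0 probe sets at an unadjusted p under 0.05, since its smallest two-sided p with 3 against 3 arrays is 0.1. On leaving out each array, 4 to 6 were higher and 19 to 21 lower, and of the other p53 genes 14 to 19 were higher and 15 to 17 lower. The replicate block gave 5 higher and 22 lower. The replicate numbers were shared by name only. Of the 27 called genes, 17 kept their call under every alternative run per gene and 0 reversed. Genes near the floor, such as Trp73, are limited by signal: with a floor of 100 its adjusted p was 0.105 (limma).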
